A study of Mus musculus with 22 samples.

Results

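Serotonin receptors of the mouse hippocampal CA1 region were examined at the mRNA level in younger-adult and older-adult mice on 2 diets. The 8 receptor genes Htr1a, Htr1b, Htr5b, Htr2a, Htr2c, Htr4, Htr7 and Htr3a were taken by name, out of 23361 genes in the matrix, and all 8 passed the filter on low values that left 16978 genes for testing. They were chosen with earlier results of these data known. Each of 22 libraries came from the microdissected CA1 region of 1 female mouse of the Swiss Webster x DBA/C57BL6 F1 background. Mice were either fed ad libitum (AL, labelled normal diet) or kept from young adulthood on calorie restriction (CR) in which only carbohydrates were reduced, and were examined at 5 or 15 months of age. The groups were AL at 5 months (n = 5), CR at 5 months (n = 5), AL at 15 months (n = 6) and CR at 15 months (n = 6), and all mice were wild type and were anesthetized with ketamine and xylazine and perfused before dissection. Levels are given as FPKM, a fragment count scaled by the exon length of the gene and by the size of the library, so that the levels of different receptors can be compared.

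Serotonin reaches the hippocampus from neurons of the raphe nuclei in the brainstem, and its action there depends on which receptors a cell carries. Receptors of the Htr1 family couple to Gi/o proteins, lower cyclic AMP and open GIRK potassium channels, Htr2 receptors couple to Gq and phospholipase C, and Htr4 and Htr7 couple to Gs and raise cyclic AMP. Htr3a encodes a subunit of the only serotonin receptor that is itself an ion channel, and Htr5b encodes a receptor that works in rodents but is a pseudogene in humans. Htr1a is the main inhibitory serotonin receptor of hippocampal pyramidal cells, whereas Htr3a in the hippocampus is found mostly on interneurons and Htr2c is very abundant in the choroid plexus, the epithelium that makes cerebrospinal fluid.

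The 2 receptors with the highest levels in these libraries, Htr1a and Htr2c, are shown with the sequence just upstream of their annotated starts, from the RefSeq promoter table (GRCm38.p6), which held 5 of the 8 members. The Htr1a stretch is chr13:105443443-105443638 and the Htr2c stretch is chrX:146962263-146962463, both on the plus strand and written 5′ to 3′. The Htr1a stretch ends just before the GENCODE M21 start (105443639) and short of the RefSeq start at 105443693. The Htr2c stretch ends just before the RefSeq start (146962464) and short of the GENCODE M21 start at 146962513. Capitals mark the matches to 4 motifs searched on both strands, with no overlap between matches. The motifs were TATAAA (the TATA box), CCAAT (the CCAAT box), GGGCGG (the GC box) and TGACG (the core of the cyclic AMP response element).
Htr1a: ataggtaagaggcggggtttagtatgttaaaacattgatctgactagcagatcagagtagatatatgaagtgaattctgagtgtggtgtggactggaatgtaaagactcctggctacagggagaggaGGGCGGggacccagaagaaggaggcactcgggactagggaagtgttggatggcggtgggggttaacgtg
Htr2c: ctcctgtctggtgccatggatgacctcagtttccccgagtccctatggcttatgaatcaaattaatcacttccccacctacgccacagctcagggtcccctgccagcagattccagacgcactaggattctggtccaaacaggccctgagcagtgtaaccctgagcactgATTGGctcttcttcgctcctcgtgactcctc
In 196 bases, the Htr1a stretch held 1 GGGCGG, which 23.9% of 32851 promoter windows of that length also held. The Htr2c stretch of 201 bases held 1 CCAAT on the opposite strand, read as ATTGG in that line, as did 28.6% of windows. These matches describe the letters only, and no measurement of factor binding was used here.

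All 8 are protein-coding genes, and their positions are those of the GENCODE M21 annotation on GRCm38, the assembly that mm10 represents. Htr1a lies at chr13:105443639-105448122 on the plus strand and is a single exon of 4484 bases, and Htr1b lies at chr9:81628291-81633828 on the minus strand with 2 exons. The genes for Htr5b (chr1:121509842-121528465, minus strand) and Htr2a (chr14:74640840-74709494, plus strand) have 2 and 3 exons. Htr2c spans chrX:146962513-147197277 on the plus strand, the longest of the 8 at 234765 bases with 8 exons after overlapping exons are merged. Htr4 (chr18:62324204-62496577, plus strand) has 10 merged exons, Htr7 (chr19:35958734-36057507, minus strand) has 6, and Htr3a (chr9:48899213-48911099, minus strand) has 9.

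Htr1a and Htr2c had the highest mean levels of the 14 serotonin receptor mRNAs in these dissected CA1 libraries. Choroid plexus markers were also present in the libraries (below), and the tissue source of the Htr2c mRNA was not tested. Over all 22 libraries the mean level was 14.9 FPKM for Htr1a and 13.3 FPKM for Htr2c, higher than the levels of 62.9% and 59.7% of the genes tested. The other 6 members had means of 2.86 FPKM (Htr4), 3.06 FPKM (Htr1b), 4.39 FPKM (Htr2a), 4.56 FPKM (Htr5b), 5.61 FPKM (Htr7) and 5.68 FPKM (Htr3a). Htr1a was the highest of 14 serotonin receptors in all 5 AL libraries at 5 months and all 6 CR libraries at 15 months, while Htr2c was the highest in 3 of 5 CR libraries at 5 months and 3 of 6 AL libraries at 15 months. Among the 8 members the level of Htr5b varied most between libraries, from 0.361 to 11.2 FPKM, a 31.0-fold range, against a 3.72-fold range for Htr2a.

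At 5 months the summed FPKM of the 14 receptors was 60.6 ± 9.36 with AL (SD, n = 5) and 76.0 ± 3.38 with CR (SD, n = 5), and at 15 months it was 58.6 ± 8.25 with AL (SD, n = 6) and 58.4 ± 5.16 with CR (SD, n = 6). Htr1a made up 26.6% ± 2.45 of this sum in AL mice at 5 months and 18.5% ± 5.90 at 15 months. Htr7 made up 6.69% ± 2.09 and 13.8% ± 3.06 in the same groups, and Htr5b 10.3% ± 4.48 and 3.56% ± 2.35. In CR mice the share of Htr2c was 28.0% ± 9.41 at 5 months and 14.0% ± 6.24 at 15 months.

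**Figure D1:**
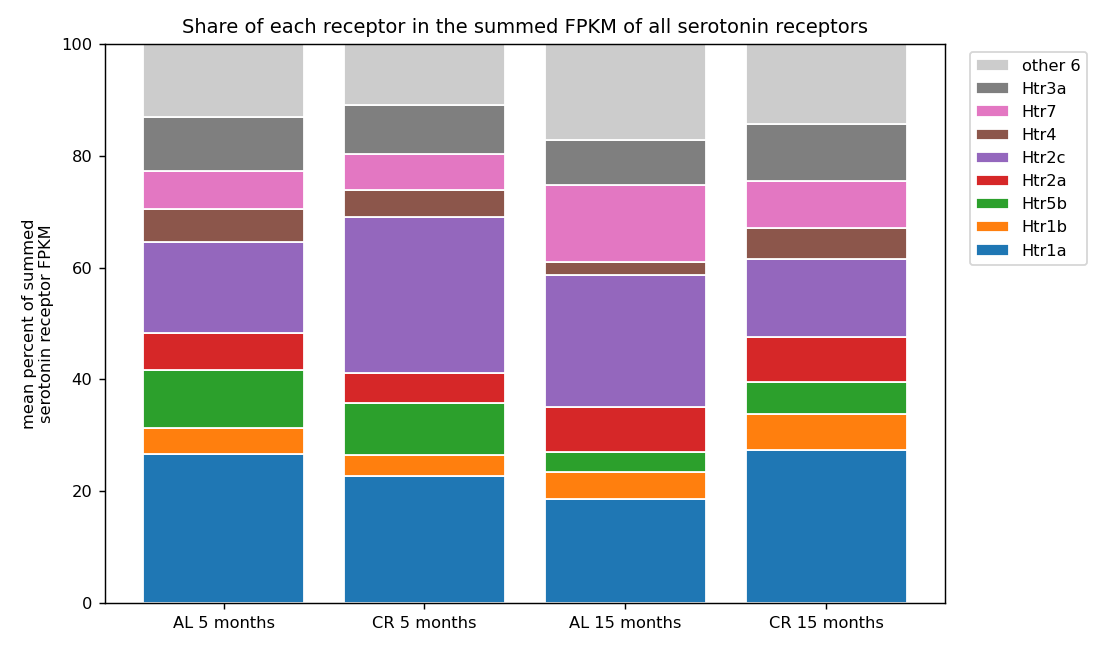
Mean percent of the summed FPKM of 14 serotonin receptors taken by each receptor, per group (n = 5 libraries per group at 5 months and 6 at 15 months), with the 6 receptors outside the chosen 8 drawn together. The Htr1a band is 26.6% in AL mice at 5 months and 18.5% in AL mice at 15 months, and the Htr2c band is 28.0% in CR mice at 5 months and 14.0% in CR mice at 15 months.

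Median levels of the libraries ran from 2.51 to 3.10 FPKM and the number of genes above 0 from 18281 to 19175, and none were identical. The medians were 2.57 to 2.68 FPKM in AL mice at 5 months and 2.72 to 3.10 FPKM in AL mice at 15 months, without overlap. Small RNA genes took 40.2% to 64.3% of the summed FPKM of a library. From steps in the low values, the relative depth of 18 libraries ran from 0.578 to 1.44 of their median, whereas the other 4, the libraries numbered 0 of each group, had no common step with any library (at most 0.623% of low genes on 1 ratio). Markers of the dissected tissue moved with age in AL mice. Of 5 CA1 pyramidal neuron markers 3 fell (Fibcd1, Pou3f1 and Spink8), of 6 neocortex and subiculum markers 3 rose (Cux2, Rorb and Tbr1), and no marker of either list was called in the opposite direction. Over all genes tested 9.97% were called lower and 10.7% higher. Among the markers not called, the means of Wfs1 (CA1, 56.5 to 83.4 FPKM) and Fezf2 (neocortex, 22.9 to 18.4) moved against their lists. Those of Mpped1 (CA1, 118 to 103), Tshz2 (8.52 to 27.1) and Fn1 (6.75 to 10.2) moved with them. The summed CA1 marker level was 210 to 467 FPKM in AL mice at 5 months, 274 to 409 in CR mice at 5 months, 172 to 265 in AL mice at 15 months and 83.8 to 408 in CR mice at 15 months, and the neocortex and subiculum sum was 49.1 to 78.3, 37.1 to 66.5, 61.4 to 149 and 41.6 to 153 FPKM in the same order. A region score, the mean log2 level of the neocortex and subiculum markers minus that of the CA1 markers, had medians of -3.33 (AL) and -3.08 (CR) at 5 months and -0.19 (AL) and -1.10 (CR) at 15 months. Choroid plexus markers were higher at 5 months. Their 9 levels summed to 4.72 to 38.1 FPKM in AL and 12.9 to 335 in CR mice at 5 months, against 1.04 to 6.87 in AL and 1.26 to 4.90 in CR mice at 15 months, with 8 of 9 lower in CR mice at 15 than at 5 months and 4 of 9 lower in AL mice. Of all genes tested, 2.26% were called lower in CR mice by age and 9.97% in AL mice by age. No marker of these 3 lists was at 0 in every library of a group. In the same comparison of AL mice by age, 1 of 4 CA3 markers and 2 of 5 dentate gyrus markers fell, 1 of 5 oligodendrocyte markers fell, 1 of 4 tested thalamus markers rose, and 1 marker rose and 1 fell among 4 tested of the medial habenula, 5 of CGE interneurons and 5 of astrocytes. These counts stand beside 20.6% of all genes tested that were called there, and 1 gene of so short a list is near that share. No marker of MGE interneurons (4 genes), GABAergic neurons (3), microglia (5), endothelium (4) or raphe serotonin neurons (2 of 4 tested) was called. In these bulk samples, fewer cells of a type and less mRNA per cell cannot be told apart.

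With age, AL mice had less Htr1a, Htr5b and Htr4 mRNA and more Htr7 mRNA. In total, 4 of 8 receptors were called in AL mice at 15 against 5 months, where 20.6% of all genes tested were called, and 3 of the 4 fell (9.97% of all genes were called lower and 10.7% higher). Because the receptors were chosen with earlier results of these data known, such counts are a description and not a test. The median log2 fold change was -0.20 over the 8 receptors and -0.0018 over all genes tested, and the median size of change was 0.52 against 0.20. Calls were made at a Benjamini-Hochberg adjusted p under 0.05 in limma, and fold changes are on the scale of log2(FPKM + 0.1), which understates the change of low genes. Over all genes 1809 rose and 1693 fell, a balance that depended on the scaling: with small RNA genes left out and the rest rescaled it was 3224 and 910 and the median of all genes shifted to 0.11, and with libraries set to a common median it was 1441 and 2286. The directions of the 4 called receptors were the same under both scalings.

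**Figure D2:**
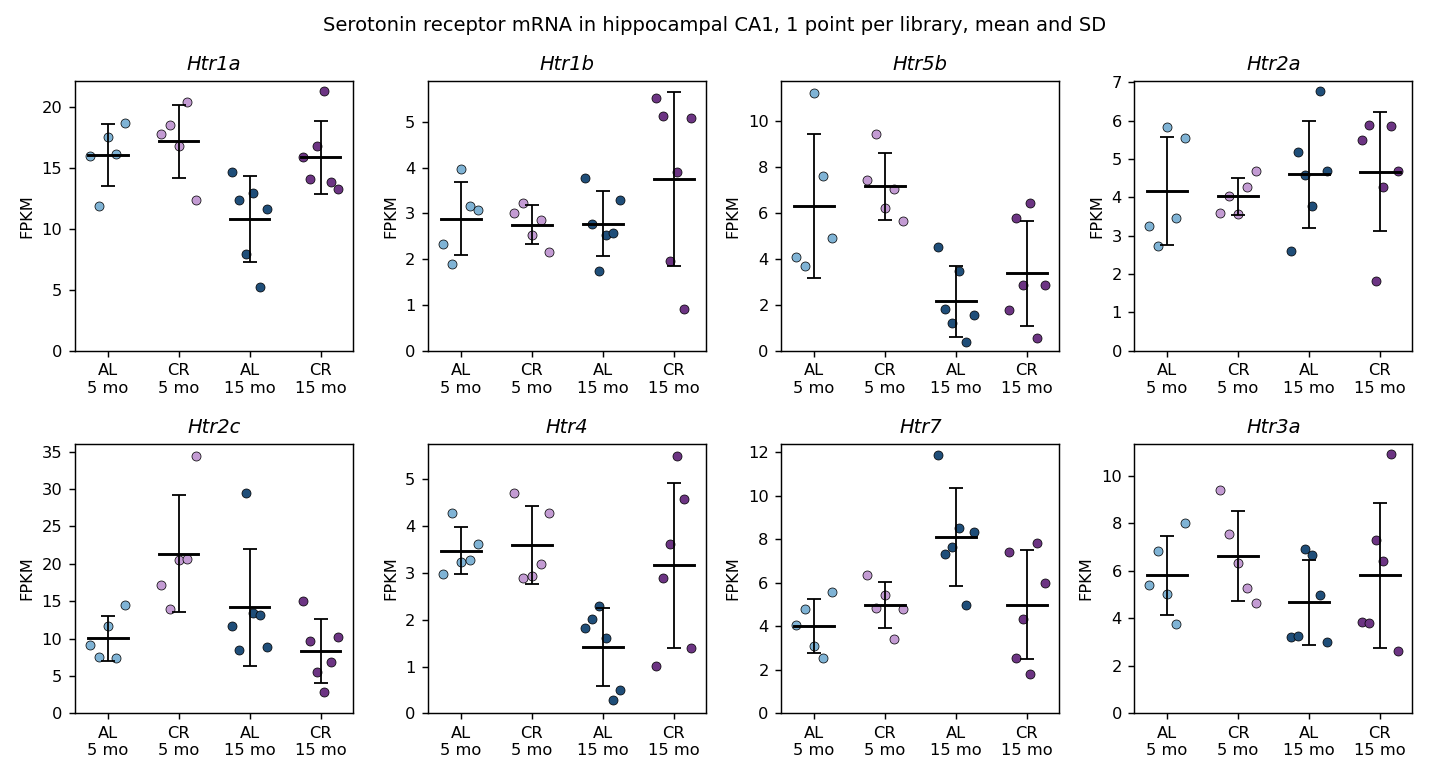
FPKM of the 8 receptors in every library (points), with the mean (bar) and SD (whiskers) of each group, each panel with its own axis from 0. For Htr4 the 6 libraries of AL mice at 15 months (0.278 to 2.29 FPKM) sit below the 5 of AL mice at 5 months (2.99 to 4.29 FPKM), and for Htr2c a single library of AL mice at 15 months stands at 29.5 FPKM.

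Among the Gi/o-coupled receptors, Htr1a was measured at 16.0, 11.9, 17.6, 16.2 and 18.7 FPKM in the AL mice at 5 months and at 14.7, 12.4, 7.92, 12.9, 5.20 and 11.7 FPKM in the AL mice at 15 months. All 6 older AL mice were below the median of the younger ones, although the groups overlapped. The change was -0.63 (SE 0.21, adjusted p = 0.0380 by limma, exact two-sided permutation p = 0.0238). In CR mice the level was 12.4 to 20.4 FPKM at 5 months and 13.3 to 21.4 FPKM at 15 months, with a median of 17.8 and 15.0 FPKM, and the change was -0.11 (SE 0.21, adjusted p = 0.824). At 15 months Htr1a was above the AL median in all 6 CR mice, a difference of 0.61 (SE 0.20, exact permutation p = 0.0130) that was not called over all genes (adjusted p = 0.135). The age difference in AL mice was not called when any 1 of AL 5 months replicates 0, 2, 3 and 4 (adjusted p = 0.0614, 0.0861, 0.0640 and 0.0924) or AL 15 months replicates 2 and 4 (adjusted p = 0.0749 and 0.0725) was left out, and was -0.52 (adjusted p = 0.0794) after small RNA genes were left out of the scaling. Without the 4 libraries numbered 0, a step chosen after seeing the data, it was -0.73 (adjusted p = 0.0501). The call was also lost in a fit of only the 2 groups compared.

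Htr1b, an inhibitory receptor found largely on axon terminals, was at a lower level. The younger AL group had a mean of 2.88 ± 0.801 FPKM (SD, n = 5), the younger CR group of 2.75 ± 0.421 FPKM (SD, n = 5) and the older AL group of 2.78 ± 0.701 FPKM (SD, n = 6). The fourth group, CR mice at 15 months, had a mean of 3.75 ± 1.90 FPKM (SD, n = 6) with values of 5.52, 5.13, 1.96, 3.91, 0.917 and 5.08, so that both its highest and its lowest library lay outside the range of the other groups. No comparison of Htr1b was called, and its log2 fold changes between groups ran from -0.05 for AL mice by age to 0.23 for CR against AL at 15 months (adjusted p = 0.746).

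Htr5b had the largest fold change with age in AL mice. It stood at 4.07, 3.71, 11.2, 7.61 and 4.91 FPKM in AL mice at 5 months and at 4.50, 1.82, 1.22, 3.46, 0.361 and 1.54 FPKM in AL mice at 15 months. All older AL mice were below the younger median of 4.91, with 1 of them inside the younger range. The log2 fold change of -1.72 (SE 0.55) was called (adjusted p = 0.0306, exact permutation p = 0.0195). Values in CR mice were 7.45, 9.42, 6.21, 7.03 and 5.66 FPKM at 5 months and 1.75, 5.78, 2.84, 6.41, 0.546 and 2.84 FPKM at 15 months. All 6 older CR mice were below the younger CR median, and the change of -1.40 (SE 0.55, exact permutation p = 0.0238) did not pass over all genes (adjusted p = 0.172). CR and AL mice differed by 0.28 at 5 months (adjusted p = 1) and 0.61 at 15 months (adjusted p = 0.570), both within the spread of the libraries. The call in AL mice was lost without AL 5 months replicate 2 (adjusted p = 0.0893) or 3 (0.0624) and without AL 15 months replicate 2 (adjusted p = 0.0521) or 4 (0.0687).

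Among the Gq-coupled receptors, Htr2a, the cortical target of classical psychedelics, was nearly level across the groups, with means of 4.17 ± 1.42 (AL, n = 5) and 4.02 ± 0.474 FPKM (CR, n = 5) at 5 months and 4.60 ± 1.40 (AL, n = 6) and 4.67 ± 1.54 FPKM (CR, n = 6) at 15 months. Its highest group mean was 1.16 times its lowest, the smallest ratio of the 8 receptors, and no comparison was called (log2 fold changes -0.01 to 0.15).

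Htr2c, which couples to Gq as Htr2a does, reached its highest levels in CR mice at 5 months. These 5 libraries held 17.2, 14.0, 20.5, 20.6 and 34.5 FPKM, against 9.13, 7.49, 11.7, 7.46 and 14.5 FPKM in AL mice of that age. All 5 CR mice were above the AL median and the ranges overlapped by 1 library. The difference was 1.06 (SE 0.37, exact permutation p = 0.0159, unadjusted limma p = 0.0102), a 2.12-fold ratio of means, and was not called over all genes (adjusted p = 1). At this comparison limma called 0 genes, with 789 genes or 4.65% of those tested at an unadjusted p under 0.05.

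At 15 months the CR mice had the lowest mean level of Htr2c, with values of 15.0, 9.62, 5.53, 2.82, 6.89 and 10.2 FPKM, and AL mice had 11.7, 8.52, 29.5, 13.4, 13.2 and 8.82 FPKM. The fall with age in CR mice was the only receptor call in that comparison, 1 of 8 against 3.36% of all genes tested (2.26% called lower), with a log2 fold change of -1.46 (SE 0.36, adjusted p = 0.0268, exact permutation p = 0.00649) and all 6 older mice below the younger median. In AL mice the change with age was 0.40 (SE 0.36, adjusted p = 0.444). The diet difference at 15 months was -0.80 (SE 0.34, adjusted p = 0.241). The change in the diet difference between the ages was -1.86 (SE 0.51, unadjusted p = 0.00148) and did not pass over all genes (adjusted p = 0.608).

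Choroid plexus markers were measured beside Htr2c. CR 5 months replicate 4 had both the highest sum of the 9 markers (335 FPKM) and the highest Htr2c level (34.5 FPKM), and replicate 3 had the next sum (78.4 FPKM) with 20.6 FPKM of Htr2c. Replicate 2, with the lowest marker sum of that group (12.9 FPKM), had nearly the same Htr2c level as replicate 3 (20.5 FPKM). At 5 months 6 of 9 markers were higher in CR than in AL mice at an unadjusted p under 0.05, and none was called. With the mean log2 level of the 9 markers as a covariate, the diet difference in Htr2c at 5 months was 0.60 (SE 0.36), and without replicates 3 and 4, a step chosen after seeing the data, it was 0.80 (SE 0.43). Without these 2 libraries the age change in CR mice was -1.20 (SE 0.42, adjusted p = 0.192), and with the marker covariate it was -0.43 (adjusted p = 0.923). In CR mice this mean marker level was 0.31 to 5.04 at 5 months and -2.48 to -1.05 at 15 months. With the covariate 0 of all 16978 genes were called in CR mice by age, against 570 without it. Age and choroid plexus marker level in CR mice therefore cannot be told apart. For the age change of Htr2c in CR mice, leaving out CR 5 months replicate 4 alone gave -1.27 (adjusted p = 0.0877) and replicate 2 alone -1.45 (adjusted p = 0.0537). A fit of only the 2 groups compared gave -1.46 (adjusted p = 0.0966), and a fit that included the region score gave -1.58 (adjusted p = 0.167). AL 15 months replicate 2, at 29.5 FPKM of Htr2c, had a choroid plexus sum of 6.84 FPKM. Without it the age change of Htr2c in AL mice was 0.17 (adjusted p = 0.759) and the diet difference at 15 months -0.56 (adjusted p = 0.382), and without CR 15 months replicate 3 that diet difference was -0.53 (adjusted p = 0.512). The age change in AL mice was 0.93 (adjusted p = 0.0950) with the marker covariate and 0.22 (adjusted p = 0.916) with the region score.

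**Figure D3:**
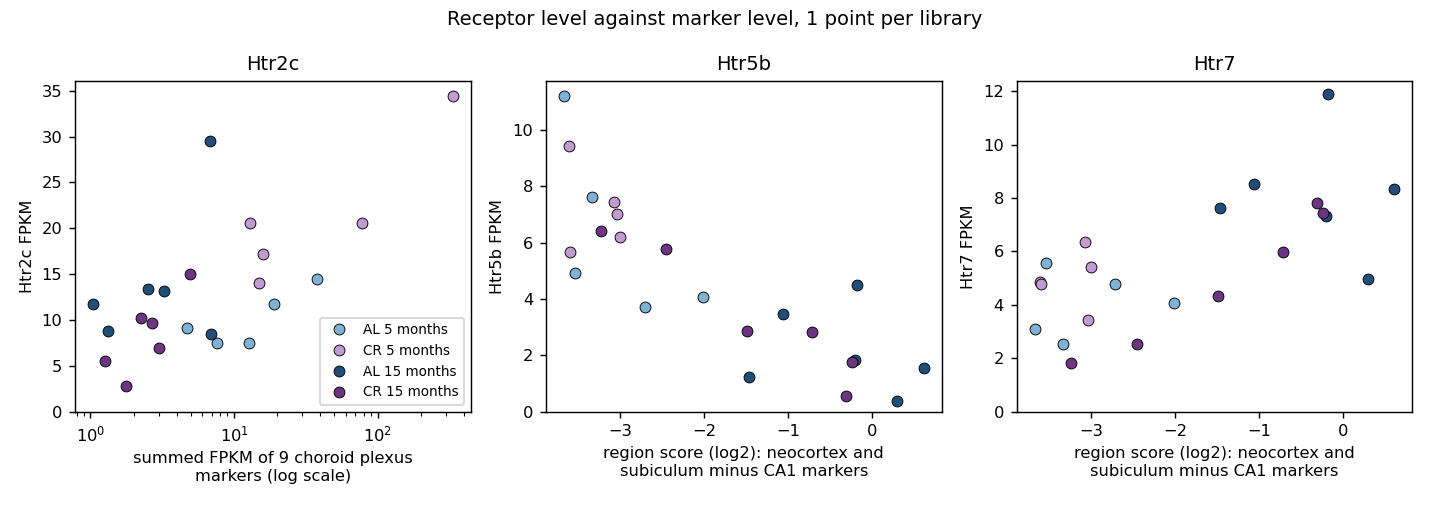
Receptor FPKM against marker levels, 1 point per library and a color per group: Htr2c against the summed FPKM of 9 choroid plexus markers on a log axis (left), and Htr5b (middle) and Htr7 (right) against the region score on a log2 scale. The library with 34.5 FPKM of Htr2c has a marker sum of 335 FPKM, and the one with 29.5 FPKM a sum of 6.84 FPKM. With all groups pooled, libraries with higher region scores tend to lie lower for Htr5b and higher for Htr7. This pooling mixes ages, whose scores in AL mice did not overlap. Within AL mice at 15 months, the library with the lowest score (-1.47) had 7.64 FPKM of Htr7, and one at 0.30 had the lowest level (4.98 FPKM).

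The 2 Gs-coupled receptors moved in opposite directions with age in AL mice. Htr4, which promotes excitability of pyramidal cells, was at 2.99, 4.29, 3.23, 3.28 and 3.62 FPKM at 5 months and at 1.83, 2.03, 2.29, 1.61, 0.278 and 0.492 FPKM at 15 months. It was the only member whose libraries did not overlap between these groups, which held for 14.0% of all genes tested. The log2 fold change was -1.51 (SE 0.45, adjusted p = 0.0226, exact permutation p = 0.00649). In CR mice it stood at 4.71, 2.90, 2.93, 3.19 and 4.29 FPKM at 5 months and at 1.0, 2.89, 3.62, 5.50, 4.59 and 1.40 FPKM at 15 months, where 2 libraries were as low as those of older AL mice and 4 were above all of them. The change with age in CR mice was -0.37 (SE 0.45, adjusted p = 0.705), and CR mice exceeded AL mice at 15 months by 1.17 (SE 0.43, exact permutation p = 0.0823, adjusted p = 0.176), a difference that was not called. The age call in AL mice was lost without AL 5 months replicate 1 (adjusted p = 0.0535) or AL 15 months replicate 5 (0.0525).

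Htr7 was the member that rose. Its level was 4.08, 4.78, 3.09, 2.55 and 5.56 FPKM in AL mice at 5 months and 11.9, 7.33, 7.64, 8.51, 4.98 and 8.32 FPKM at 15 months. All 6 older mice were above the younger median and 5 of them above every younger mouse. The log2 fold change was 1.01 (SE 0.32, adjusted p = 0.0303, exact permutation p = 0.00649), a 2.02-fold ratio of means. In CR mice it averaged 4.97 ± 1.07 FPKM when younger (SD, n = 5) and 4.99 ± 2.51 FPKM when older (SD, n = 6), a change of -0.15 (SE 0.32, adjusted p = 0.851). All 6 CR mice at 15 months were below the AL median of 7.98 FPKM, with a difference of -0.83 (SE 0.30, exact permutation p = 0.0541, adjusted p = 0.174) that was not called. The call in AL mice was lost without AL 5 months replicate 2 (adjusted p = 0.0766) or 3 (0.0784) and without AL 15 months replicate 0 (adjusted p = 0.0664) or 3 (0.0505). Without all 4 libraries numbered 0 it was 0.91 (adjusted p = 0.0840).

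Htr3a, the ion channel subunit, had no called change. Its means were 5.81 ± 1.66 (AL, n = 5) and 6.63 ± 1.90 FPKM (CR, n = 5) at 5 months and 4.67 ± 1.79 (AL, n = 6) and 5.81 ± 3.06 FPKM (CR, n = 6) at 15 months. The widest spread was in CR mice at 15 months, from 2.63 to 10.9 FPKM. Log2 fold changes lay between -0.35 (AL mice by age, SE 0.32, adjusted p = 0.459) and 0.24 (CR against AL at 15 months, SE 0.30, adjusted p = 0.721).

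The age calls in AL mice moved with the region score. With this score as a covariate none of the 4 receptors was called, and Htr1a was -0.36 (adjusted p = 0.701), Htr4 -0.10 (adjusted p = 0.965), Htr5b 0.18 (adjusted p = 0.941) and Htr7 -0.074 (adjusted p = 0.962). In that fit 0 of all 16978 genes were called, with 2070 at an unadjusted p under 0.05, and the score itself separated the ages, lying between -3.67 and -2.01 in AL mice at 5 months and between -1.47 and 0.62 at 15 months. Age and region score in AL mice therefore cannot be told apart. With the choroid plexus score as a covariate only Htr1a was called. Leaving out AL 5 months replicate 2 or 3 left 1 of the 4 calls (Htr4), and leaving out AL 15 months replicate 2 or 4 left 2 (Htr4 and Htr7). Without the 4 libraries numbered 0, 2 calls were left (Htr4 at -1.69, adjusted p = 0.0266, and Htr5b at -2.12, adjusted p = 0.0284), and Htr2c in CR mice by age was -1.72 (adjusted p = 0.0366).

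**Figure D4:**
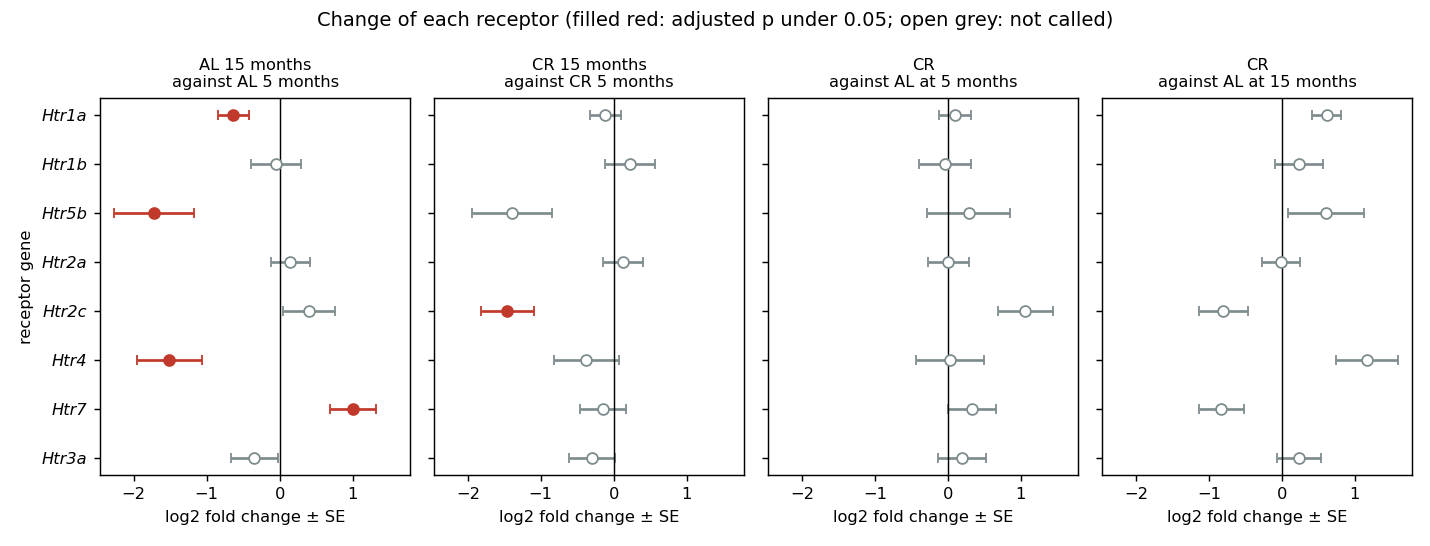
Log2 fold change (x axis, on the scale of FPKM + 0.1) and SE of each receptor in 4 comparisons, with called receptors filled red. The calls are Htr1a (-0.63), Htr5b (-1.72), Htr4 (-1.51) and Htr7 (1.01) in AL mice by age and Htr2c (-1.46) in CR mice by age, and there are none in either diet comparison.

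For CR against AL mice at 15 months 0 of 8 receptors were called, where 126 genes or 0.742% of all tested were called. At an unadjusted p under 0.05 there were 4 receptors (Htr1a and Htr4 higher, Htr2c and Htr7 lower), against 17.1% of all genes tested. The study lists these 4 with the same directions from the same mice, so this count is a description and not a test. These AL mice are also the older group of the AL age comparison, so the values of both comparisons share 6 libraries and are given side by side only. Htr1a was -0.63 by age and 0.61 by diet, Htr4 -1.51 and 1.17, Htr5b -1.72 and 0.61, and Htr7 1.01 and -0.83. Older CR mice set against younger AL mice gave 0 of 8 receptor calls (3.12% of all genes tested were called), and the largest change there was Htr5b at -1.11 (SE 0.55, adjusted p = 0.271), followed by Htr2c at -0.40 (adjusted p = 0.591). The remaining 6 lay between -0.34 (Htr4) and 0.19 (Htr1b). The age by diet interaction called 0 of 8 receptors and 0 of all genes (1301 genes, 7.66%, at an unadjusted p under 0.05), and Htr2c and Htr7 (-1.16, unadjusted p = 0.0181, adjusted p = 0.628) were the receptors under that unadjusted level. The differences between AL and CR mice in how Htr1a, Htr4 and Htr5b changed with age were 0.52 (SE 0.30, adjusted p = 0.682), 1.14 (SE 0.64, adjusted p = 0.678) and 0.33 (SE 0.77, adjusted p = 0.930), so a called change in AL mice and an uncalled one in CR mice were not shown to differ.

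The order of the group means was CR at 5 months, AL at 5 months, CR at 15 months and AL at 15 months, from high to low, for Htr1a, Htr5b and Htr4. For these 3 the neighbors in the order did not differ in a called comparison. For Htr7 the order was AL at 15 months, CR at 15 months, CR at 5 months and AL at 5 months, and for Htr2c it was CR at 5 months, AL at 15 months, AL at 5 months and CR at 15 months, again with no called comparison between neighbors that were compared.

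The other 6 serotonin receptors had no called change. Htr5a, the relative of Htr5b, averaged 3.84 ± 0.739 FPKM (SD, n = 5) in younger and 5.66 ± 1.12 FPKM (SD, n = 6) in older AL mice, a change of 0.54 that was not called (adjusted p = 0.0594). Htr6, a Gs-coupled receptor, was between 2.55 and 2.92 FPKM in the group means and Htr1f, a Gi/o-coupled receptor, between 0.917 and 1.25 FPKM. Htr1d was at most 0.204 FPKM in the group means. Htr2b (mean 0.0867 FPKM over the 22 libraries) and Htr3b (0.0458 FPKM) did not reach the filter for testing. Of these 6 genes 4 were tested and 0 were called in any comparison, where the share of all genes tested ran from 0% to 20.6%. Their median log2 fold change in AL mice by age was 0.28, against -0.0018 for all genes tested.

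Of 9 genes for serotonin synthesis, transport and breakdown 8 were tested. In AL mice by age 1 of them was called, where 20.6% of all genes tested were called, and none was called in the other comparisons. Slc22a3, a low-affinity transporter that clears monoamines outside the synapse, rose with age in AL mice from 0.179 ± 0.0417 FPKM (SD, n = 5) to 1.17 ± 0.585 FPKM (SD, n = 6), a log2 fold change of 2.09 (SE 0.34, adjusted p = 0.000563), and was 0.195 and 0.620 FPKM in CR mice at 5 and 15 months (1.13, adjusted p = 0.0684). The related transporter Slc29a4 was -1.03 in AL mice by age (adjusted p = 0.168). Maoa and Maob, which break serotonin down, lay between 9.93 and 14.7 FPKM in all group means, and their log2 fold changes in AL mice by age were 0.06 and -0.07. The defining genes of serotonin neurons were near the bottom of the range, as Tph2, the synthesis enzyme of brain serotonin neurons, averaged 0.352 FPKM, the transporter Slc6a4 averaged 0.0322 FPKM, and their transcription factor Fev averaged 0.0175 FPKM. Slc18a2, the vesicle transporter shared by all monoamine neurons, averaged 2.13 FPKM. Tph1 (mean 0.111 FPKM) and Ddc (mean 3.13 FPKM) had no called change, and their log2 fold changes in AL mice by age were -0.36 and -0.28.

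Some signaling partners of the receptors were called in each direction in AL mice by age, where 10.7% of all genes were called higher and 9.97% lower. In the Gi/o and GIRK arm 1 of 8 genes rose and 1 fell, both GIRK channel subunits: Kcnj9 went from 33.8 ± 3.50 to 57.1 ± 9.87 FPKM (0.74, adjusted p = 0.00477) and Kcnj6 from 21.3 ± 2.05 to 11.4 ± 1.25 FPKM (-0.89, adjusted p = 0.00726). In the Gq and phospholipase C arm 3 of 9 genes fell and 1 rose. Among them were the protein kinase C gene Prkca (-0.84, adjusted p = 0.0119) and the phospholipase Plcb4 (0.78, adjusted p = 0.0288). In the Gs and adenylate cyclase arm 3 of 10 rose and 1 fell, with Adcy8 at 1.08 (adjusted p = 0.00241), the protein kinase A subunit Prkacb at 0.80 (adjusted p = 0.000866) and Adcy9 at -0.68 (adjusted p = 0.0164). Of 7 receptor partners 2 rose, the arrestin Arrb1 (0.36, adjusted p = 0.000403) and Adar (0.38, adjusted p = 0.000842), an RNA-editing enzyme that acts on the Htr2c transcript. The median log2 fold changes of the 4 lists were -0.04, -0.28, 0.02 and 0.22, against -0.0018 for all genes.

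In CR mice by age, Arrb1 rose (0.24, adjusted p = 0.0134) and no other gene of these 4 lists was called, where 3.36% of all genes tested were called. Arrb1 (0.26, adjusted p = 0.0121), Adar (0.27, adjusted p = 0.0289) and Prkacb (0.55, adjusted p = 0.0359) were higher in CR mice at 15 months than in AL mice at 5 months. These were 2 of 7 receptor partners and 1 of 10 genes of the Gs arm, against 3.12% of all genes tested. No gene of these 4 lists was called by diet at 5 months, by diet at 15 months or in the interaction. The shares of all genes tested there were 0%, 0.742% and 0%.

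Within groups, some receptors varied together from mouse to mouse. After the group means were removed, 28 pairs of members were compared over 22 libraries with permutation tests within groups. Htr1a and Htr5b were positively related, with Pearson's r = 0.695 (adjusted permutation p = 0.0283) and Spearman's rho = 0.657 (adjusted permutation p = 0.0518), and r = 0.577 without the 2 libraries farthest from the median of Htr1a. Htr1b and Htr3a were inversely related, with r = -0.691 (adjusted permutation p = 0.0379), rho = -0.572 (adjusted permutation p = 0.200) and r = -0.537 without the 2 farthest libraries. Neither relation passed in its rank form after adjustment, and the number of pairs past the threshold fell to 0 or 1 when some single libraries were left out.

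By overall pattern across the 22 libraries, the genes most like each member were ranked by Pearson's r among 13449 genes with a mean of at least 1 FPKM, small RNA genes left out, as a description. Htr4 was most like Slit1 (r = 0.953), Tanc1 (0.941) and Cabp7 (0.929), and Htr5b most like Pou3f1 (0.946), which is 1 of the 5 CA1 markers, Lefty1 (0.900) and Gpr161 (0.887). Htr7 was most like Efr3b (0.897), Aifm2 (0.860) and Fstl1 (0.844), and Htr2c most like Vat1l (0.889), Ccdc108 (0.861) and Fam179a (0.846). The nearest genes were less close for Htr1a (Fbn2, 0.833, Tcf4, 0.813, and Ust, 0.798), Htr1b (Cds1, 0.822, Mpped1, 0.814, and Stam2, 0.805), Htr2a (Sptbn1, 0.809, Dnajc13, 0.770, and Nyap2, 0.760) and Htr3a (Npy2r, 0.801, Mas1, 0.798, and Actn2, 0.791). Mpped1 is also 1 of the 5 CA1 markers. The points of these relations share libraries, groups and the tissue differences given above.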

How the data were processed

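Microdissected hippocampal CA1 tissue from 22 mice was used for mRNA sequencing on an Illumina HiSeq, 1 library per mouse. Per the study's methods, the authors' values came from TopHat alignments to mm10 and the Cufflinks package with its bias option on, after a Picard step for duplicate reads; versions and the gene annotation are not given in the sources used here. The deposited values are FPKM per gene and library, and reads that map to several places were shared out by weight, which can move values between similar genes. The low values kept part of the steps of single fragments: in 70 of 231 pairs of libraries at least 3% of genes under 0.3 FPKM (at most 16.7%) had 1 common ratio within 0.001 on the natural log scale, which linked 18 libraries and gave their relative depths. Whole read counts were not recovered, total depth is unknown, and no counting interval is given. NanoString data were not analysed here.

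Genes with a mean of at least 0.1 FPKM (16978) were fitted as log2(FPKM + 0.1) in limma 3.58.1 (R 4.3.3), all 4 groups in 1 model, with eBayes and an intensity trend, 6 contrasts and two-sided p-values adjusted by Benjamini-Hochberg over all genes tested. Single receptors were also tested by exact two-sided permutation of libraries, for which the smallest p possible is 0.00216 with 5 against 6 libraries, and pairs of receptors with 100000 permutations within groups. The fit was tested on simulated data. The receptors and gene lists were chosen with earlier results of these data known. The genes named were the receptors, the other receptors and serotonin-handling genes, up to 3 called genes per signaling list with the largest change (1 of them is not reported here), and the 3 genes most like each receptor (small RNA genes left out). Positions are from GENCODE M21, and python 3.11.15 with scipy 1.17.1 was used. Alternatives covered the pseudocount, filter, scaling, trend, groups fitted, replicate number as a block, marker scores as covariates and each library left out.

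Whether replicate numbers pair libraries was checked from their deviations from the group means. The correlation of same-numbered libraries ran from -0.139 to 0.163 over 26 pairs, so they were not treated as paired. The 1 pair above 0.1 was that of the libraries numbered 0 of AL and CR mice at 5 months (0.163). Libraries numbered 0 also had no common step in their low values with any library, so this number may not be without shared structure.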

Additional observations from a re-analysis of the deposited data

Results flagged for a closer look

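Each receptor was searched in each group (32 groups of 5 or 6 libraries) for a library far from the others, of which chance alone gives about 1 in 20. A single value was found: Htr2c in AL 15 months replicate 2 was 29.5 FPKM, with the next highest library of that group at 13.4 FPKM, a gap that was 0.769 of the whole range of the 6 libraries. The choroid plexus markers of that library summed to 6.84 FPKM, within the 1.04 to 6.87 FPKM of its group, and its neocortex and subiculum markers had the lowest sum of the group, 61.4 FPKM. A single value in 32 groups is not above the share of about 1 in 20 that chance alone gives. Why this library differed was not tested.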

How the results depend on the processing

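The calls changed with single libraries left out and with tissue marker scores as covariates. These scores moved with age, so the covariate fits cannot show what the calls depend on. The number of receptors called in AL mice by age was 4 under every change of pseudocount, low filter, trend and the replicate block, 3 with small RNA genes left out or only the 2 groups fitted, 0 with the region score as a covariate, 1 with the choroid plexus score, 2 without all libraries numbered 0 (chosen after seeing the data), and 1 to 4 with single libraries left out. In CR mice by age it was 0 with only the 2 groups fitted, with either marker score as a covariate or without both choroid-rich libraries, and 0 to 1 with single libraries left out. The number of related receptor pairs was 1 with a common median and 0 to 2 with single libraries left out. The replicate block (4 and 1 receptors called in AL and CR mice by age) changed no call, so it is not given beside each result. Same-numbered libraries were not treated as paired, but the 4 libraries numbered 0 all lacked a common step in their low values. What these 4 libraries share was not tested.

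Of the called receptors, Htr5b (0.18) and Htr7 (-0.074) in AL mice by age changed sign, both with the region score as a covariate. The other changes of sign were of uncalled values. With the region score these were Htr1b in AL mice by age (0.26), Htr1a (0.074) and Htr4 (0.59) in CR mice by age, Htr4 by diet at 5 months (-0.080), Htr5b by diet at 15 months (-0.14), Htr5b (-0.28) and Htr3a (-0.062) in the interaction, and, in CR mice at 15 against AL mice at 5 months, Htr1a (0.15), Htr5b (0.041), Htr4 (0.51), Htr7 (-0.47) and Htr3a (0.094). With the choroid plexus score they were Htr1b (0.040), Htr2a (-0.29) and Htr4 (-0.067) by diet at 5 months, Htr2a by diet at 15 months (0.0096), Htr2c in CR mice at 15 against AL mice at 5 months (0.16), and Htr2a (0.30) and Htr3a (-0.037) in the interaction. For Htr2a by diet at 5 months, by diet at 15 months and in the interaction, a common median gave -0.0082, 0.013 and 0.021 and quantile normalization -0.0057, 0.059 and 0.064, and a pseudocount of 1 gave -0.0029 at 5 months and 0.0012 in the interaction. With small RNA genes left out, Htr1b in AL mice by age was 0.066, Htr1a in CR mice at 15 against AL mice at 5 months 0.031 and Htr3a in the interaction -0.028. With the replicate block Htr3a in CR mice at 15 against AL mice at 5 months was 0.038. Without both choroid-rich libraries, Htr1b (0.053), Htr2a (-0.097) and Htr4 (-0.012) by diet at 5 months and Htr2a (0.084) and Htr3a (-0.20) in the interaction changed sign. Without all libraries numbered 0, Htr2a (-0.025) and Htr4 (-0.12) by diet at 5 months and Htr1b (-0.030) and Htr2a (-0.0020) in CR mice at 15 against AL mice at 5 months did.

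With single libraries left out, sign changes occurred for diet at 5 months in Htr1a (-0.0097 to 0.21), Htr1b (-0.17 to 0.088), Htr2a (-0.13 to 0.14) and Htr4 (-0.071 to 0.11), for diet at 15 months in Htr2a (-0.16 to 0.23), for age in AL mice in Htr1b (-0.18 to 0.075) and in CR mice in Htr7 (-0.31 to 0.096), for CR mice at 15 against AL mice at 5 months in Htr1a (-0.12 to 0.039) and Htr3a (-0.32 to 0.080), and for the interaction in Htr2a (-0.17 to 0.22), Htr3a (-0.17 to 0.24) and Htr5b (-0.064 to 0.74). In all, 1601 of the receptor values under an alternative kept direction and side of the threshold, 31 kept direction and lost the call, and 88 changed sign. The total depth behind these FPKM values is unknown, and the cause of these changes was not tested.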
